A study of Mus musculus with 13 samples.

Results

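The HoxC cluster is 1 of the 4 groups of Hox genes in the mouse genome. Its 9 protein-coding genes, Hoxc13, Hoxc12, Hoxc11, Hoxc10, Hoxc9, Hoxc8, Hoxc6, Hoxc5 and Hoxc4, were taken by name from the GENCODE vM1 annotation, out of 22367 protein-coding genes in all. They were chosen by name, with earlier results of these data known, although no measured value entered the rule. They were described in 5 ChIP-seq peak lists made from wild-type mouse embryonic stem cells (mESCs), which are cells grown from the early embryo that can still form all its tissues. Endogenous AEBP2 had 2 lists and H3K27me3 had 2 lists, 1 for each replicate. FS2-AEBP2, which is AEBP2 with an N-terminal Flag-StrepII tag expressed from a plasmid under the CAG promoter, had 1 list and no replicate. The labels give the same male line, 129/1 XY, for all 5 samples, whereas E14 mESCs are named in the study's methods for FS2-AEBP2, and its ChIP followed another protocol. The labels name the antibody only as against H3K27, and the methylation state is that of the study's text. Replicate numbers of the H3K27me3 lists were taken from the sample records, although the list names appear to have them the other way round. All 5 samples were wild type. The inputs, the SUZ12 samples and the cells without full-length AEBP2 were not analysed here.

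Polycomb repressive complex PRC2 places methyl groups on lysine 27 of histone H3, and the trimethylated form, H3K27me3, marks genes that are held silent. AEBP2 is a zinc finger protein that joins PRC2 as an accessory subunit. Hox genes encode homeodomain transcription factors that give cells their position along the head to tail axis, and in mESCs their clusters are classical Polycomb targets. Within a cluster the genes are switched on in the order in which they lie on the chromosome, from the anterior end, here Hoxc4, to the posterior end, here Hoxc13.

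All 9 genes lie on the plus strand of chromosome 15 of the mm9 build, from the first base of Hoxc13 to the last base of Hoxc4 (chr15:102751534-102867274, 115741 bp). For every peak the lists hold a position and a whole-number score of unstated scale, so scores served only as ranks within a list. Each peak is also divided into blocks. In the layout of broad peaks, blocks are the stretches that pass the stricter of the caller's thresholds, joined by weaker signal, and they are called strong segments here. This reading comes from the layout, since the lists have no header. The lists held 2877 and 6779 peaks for AEBP2, 2884 for FS2-AEBP2, and 14112 and 9275 for H3K27me3. Sequencing depth is unknown, so a gap in a list shows that no peak was called there and not that AEBP2 or the mark was absent. With 2 libraries of a kind an exact permutation test cannot pass the usual threshold, and no test was made. Values are given beside the share of all promoters or regions that meet the same criterion.

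The sequence in front of the start sites differed along the cluster. The 200 bases upstream of 3 genes, and the middle 200 bases of a stretch between Hotair and Hoxc11 described further on, are printed from mm9 on the plus strand, 5′ to 3′. Hoxc9 was chosen as the start site most filled by strong segments, Hoxc13 and Hoxc4 as the ends of the cluster, and the stretch as the longest common one that is poor in CpG. Capitals mark CpG dinucleotides, the letters CG, which read the same on both strands.
Hoxc13, chr15:102751334-102751533: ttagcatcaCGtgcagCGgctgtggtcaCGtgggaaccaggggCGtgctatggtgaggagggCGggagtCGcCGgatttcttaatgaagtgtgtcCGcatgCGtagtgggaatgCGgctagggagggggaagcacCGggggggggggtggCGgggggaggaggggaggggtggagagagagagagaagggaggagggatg
Hoxc9, chr15:102806670-102806869: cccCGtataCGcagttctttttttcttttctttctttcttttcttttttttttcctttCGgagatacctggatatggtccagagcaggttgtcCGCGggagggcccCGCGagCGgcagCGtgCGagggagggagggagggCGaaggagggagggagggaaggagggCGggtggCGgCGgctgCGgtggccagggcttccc
Hoxc4, chr15:102849167-102849366: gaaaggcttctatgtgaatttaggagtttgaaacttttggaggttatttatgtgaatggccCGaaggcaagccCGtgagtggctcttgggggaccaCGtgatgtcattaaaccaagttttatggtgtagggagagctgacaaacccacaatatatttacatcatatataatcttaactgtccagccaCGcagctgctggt
CpG-poor stretch, chr15:102783608-102783807: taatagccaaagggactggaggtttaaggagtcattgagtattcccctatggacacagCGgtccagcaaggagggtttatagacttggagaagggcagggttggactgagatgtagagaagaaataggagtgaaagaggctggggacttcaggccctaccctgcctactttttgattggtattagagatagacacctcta

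These 200 bases held 12 CpGs at Hoxc13, 15 at Hoxc9 and 4 at Hoxc4, and 1 in the stretch poor in CpG. Among all protein-coding promoters the median was 7, and 90.4% had at least 1. Over the window reaching 1 kb to either side of a start site, the number of CpGs was 134 at Hoxc13, 101 at Hoxc12, 102 at Hoxc11, 88 at Hoxc10, 98 at Hoxc9, 78 at Hoxc8, 53 at Hoxc6, 61 at Hoxc5 and 23 at Hoxc4. The posterior start sites thus lay in the richer windows. The median of all promoters was 61, and 90.2% of them had fewer CpGs than Hoxc13 but only 24.1% had fewer than Hoxc4.

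Each of the 9 HoxC promoters, taken as the base of the start site and 1 kb to each side, overlapped a peak in each of the 5 lists. Among all 22367 promoters a peak was found at 9.08% for AEBP2 replicate 1, 22.3% for AEBP2 replicate 2, 6.53% for FS2-AEBP2, 17.0% for H3K27me3 replicate 1 and 17.7% for H3K27me3 replicate 2. A narrower background is given by the 3349 promoters with a peak in both H3K27me3 replicates. Of these, AEBP2 replicate 1 had a peak at 40.9%, AEBP2 replicate 2 at 68.3% and FS2-AEBP2 at 38.2%, against 9 of 9 HoxC promoters in each. The peaks at the 9 promoters were not separate events, since 1 peak often spanned several genes. They came from 5 peaks in AEBP2 replicate 1, 3 in AEBP2 replicate 2, 5 in FS2-AEBP2, 2 in H3K27me3 replicate 1 and 1 in H3K27me3 replicate 2.

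**Figure D1:**
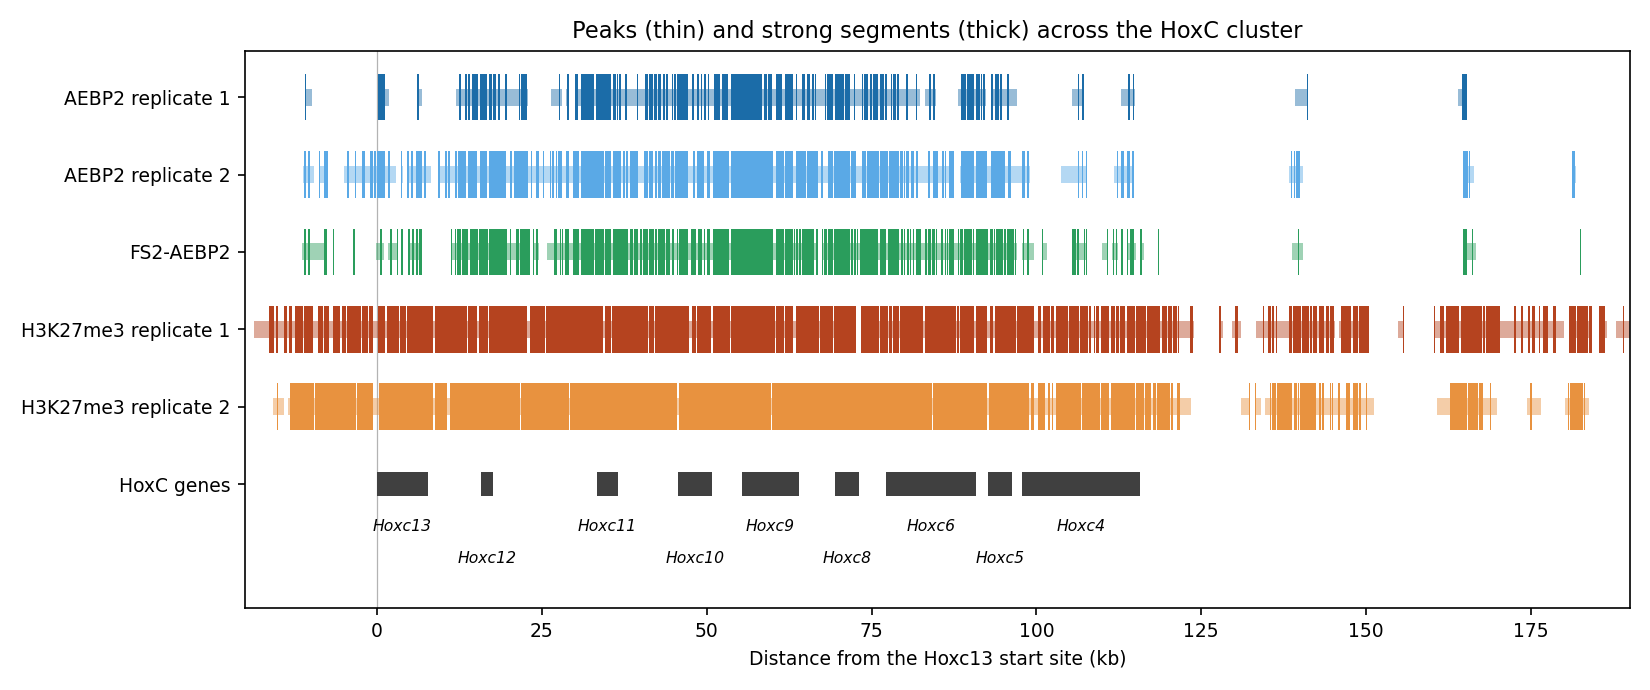
Map of the HoxC cluster with distance from the Hoxc13 start site in kb on the horizontal axis and 1 row for each list. Thin bars are peaks, thick bars are strong segments and dark boxes are the 9 genes. The H3K27me3 rows are nearly filled, whereas the AEBP2 rows thin out over Hoxc4.

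Strong segments separated the start sites further. Counting a gene when its start site itself lay in a strong segment gave 6 of 9 genes in AEBP2 replicate 1, 7 in AEBP2 replicate 2, 4 in FS2-AEBP2 and 6 in each H3K27me3 replicate. The same was true of 3.51%, 11.1%, 1.47%, 7.87% and 5.53% of all promoters in these lists, in the same order. Among the 30 other Hox genes it was true of 10, 21, 18, 20 and 22, so this trait was not particular to HoxC. Hoxc12, Hoxc11, Hoxc9 and Hoxc8 had their start site in a strong segment of all 5 lists. Hoxc13 and Hoxc5 had it in none of the 5, although segments lay between 42 and 445 bp away at Hoxc13 and between 50 and 431 bp away at Hoxc5.

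The posterior genes Hoxc13, Hoxc12, Hoxc11 and Hoxc10 act in the hind part of the body, and Hoxc13 is known above all for hair and nail. At Hoxc13 the window was 46.5% under peaks in AEBP2 replicate 1, 100% in AEBP2 replicate 2, 59.4% in FS2-AEBP2 and 100% in both H3K27me3 replicates. In strong segments it was 45.9%, 77.4%, 16.7%, 64.9% and 59.2%, so that AEBP2 replicate 2 was above both H3K27me3 lists and the other AEBP2 lists were below them. The richest window in CpG was therefore not the most filled. Hoxc12 was wholly under peaks in each list, and its window was in strong segments for 79.5% and 79.3% in the AEBP2 replicates, 93.7% in FS2-AEBP2, and 86.4% and 100% in the H3K27me3 replicates. The segment over its start site was short in AEBP2 replicate 1, with 138 bp, and measured 1160 bp in AEBP2 replicate 2, 1340 bp in FS2-AEBP2, 1282 bp in H3K27me3 replicate 1 and 9915 bp in H3K27me3 replicate 2.

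Hoxc11 and Hoxc10, which pattern the lumbar and sacral region and the hindlimb, were filled more evenly. The Hoxc11 window was in strong segments for 89.0% in AEBP2 replicate 1, 100% in AEBP2 replicate 2, 88.5% in FS2-AEBP2, 94.3% in H3K27me3 replicate 1 and 100% in H3K27me3 replicate 2. At Hoxc10 the values were 81.7%, 92.8%, 80.8%, 100% and 85.9% in the same order. AEBP2 and H3K27me3 thus overlapped in their ranges at both genes. The Hoxc10 start site fell just outside a segment in FS2-AEBP2, by 60 bp, and in H3K27me3 replicate 2, by 36 bp.

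Hoxc9, Hoxc8 and Hoxc6 are expressed at thoracic and brachial levels, where Hoxc9 and Hoxc6 sort motor neurons into columns. Hoxc9 had the most filled window around its start site, although over gene bodies Hoxc11 was more filled in both AEBP2 replicates. The Hoxc9 window lay in strong segments for 100% in both AEBP2 replicates and both H3K27me3 replicates, and for 96.3% in FS2-AEBP2. The Hoxc8 window had 87.9% and 90.1% in the AEBP2 replicates, 92.8% in FS2-AEBP2, and 91.5% and 100% in the H3K27me3 replicates. At Hoxc6 the share was 56.9% in AEBP2 replicate 1, 80.5% in AEBP2 replicate 2, 71.4% in FS2-AEBP2, 76.3% in H3K27me3 replicate 1 and 100% in H3K27me3 replicate 2. The Hoxc6 values of AEBP2 and H3K27me3 overlapped, with AEBP2 replicate 1 lowest. Hoxc6 has 3 annotated start sites. At the middle site, Hoxc6-003, the window was in segments for 31.8%, 74.6% and 64.1% in AEBP2 replicate 1, AEBP2 replicate 2 and FS2-AEBP2, and for 86.3% and 100% in the H3K27me3 replicates. At the most downstream site, Hoxc6-001, the values were 40.1%, 53.1%, 54.7%, 85.5% and 100%. The AEBP2 lists were below the H3K27me3 lists at both of these sites.

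Hoxc5 and Hoxc4 are the anterior genes of the cluster and act at cervical levels. At Hoxc5 the window was in strong segments for 75.6% in AEBP2 replicate 2, 73.6% in FS2-AEBP2, 65.1% in H3K27me3 replicate 1 and 86.1% in H3K27me3 replicate 2. AEBP2 replicate 1 stood below these 4 lists, with 66.0% of the window under peaks against 100% in each of them, and 42.2% of the gene body in strong segments against 75.9 to 98.6%. At Hoxc4 the 3 AEBP2 lists were low and the H3K27me3 lists were high. The window held no strong segment in AEBP2 replicate 1, 34.2% in AEBP2 replicate 2 and 25.4% in FS2-AEBP2, against 92.7% and 100% in the H3K27me3 replicates, so that the ranges did not overlap. In AEBP2 replicate 1 only 14.4% of the Hoxc4 window was under a peak and the nearest strong segment was 1927 bp from the start site, whereas start sites outside segments lay at most 445 bp from one in all other cases. The downstream start site of Hoxc4, Hoxc4-002, has 60 CpGs in its window against 23 at the first. Its window was in segments for 15.6%, 54.2% and 25.7% in the AEBP2 lists, and for 83.1% and 100% in the H3K27me3 lists.

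**Figure D2:**
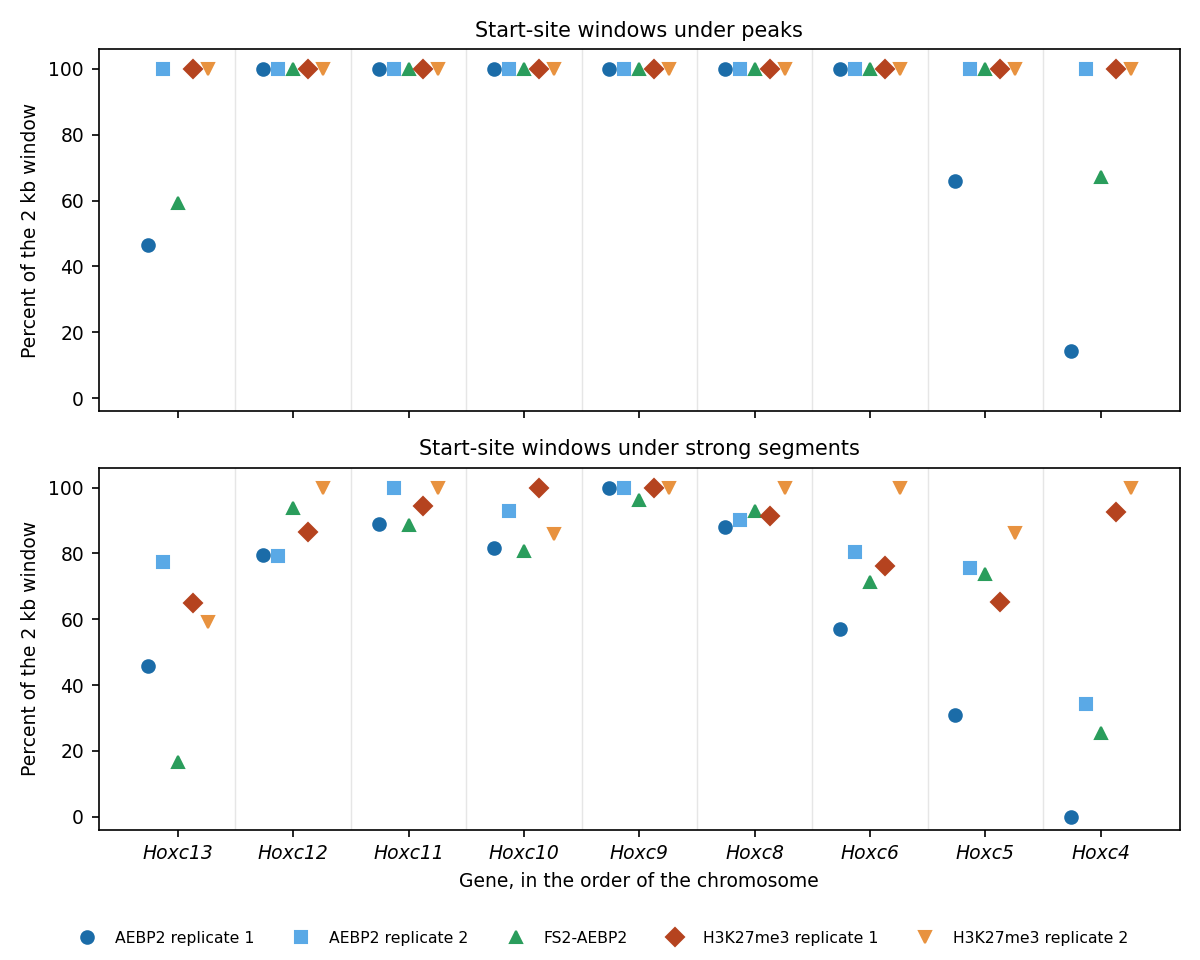
Percent of the window around each start site that lay under peaks (upper panel) and under strong segments (lower panel), with the genes in chromosomal order and 1 point for each list. Points of all lists lie between 96.3 and 100% at Hoxc9, whereas at Hoxc4 the AEBP2 points lie at or below 34.2% and the H3K27me3 points at or above 92.7% in the lower panel.

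Over the gene bodies, from the first to the last annotated base, the peaks of AEBP2 left most of Hoxc4 uncovered in all 3 lists and most of Hoxc13 in AEBP2 replicate 1. Hoxc4 was under peaks for 21.6% in AEBP2 replicate 1, 46.0% in AEBP2 replicate 2 and 47.8% in FS2-AEBP2, and for 100% in both H3K27me3 replicates. Hoxc13 was covered for 32.8%, 80.7% and 64.1% in the AEBP2 lists and for 100% in both H3K27me3 replicates. The other 7 bodies were covered for between 70.8 and 100% in every list, with the lowest value at Hoxc6 in AEBP2 replicate 1. In strong segments Hoxc4 was again lowest, with 4.9%, 15.7% and 19.6% in the AEBP2 lists and 80.9% and 85.5% in the H3K27me3 lists, while Hoxc11 reached 87.1%, 91.5%, 85.0%, 82.1% and 100%. The gaps between peaks over Hoxc4 measured up to 8346 bp in AEBP2 replicate 1, 4733 bp in AEBP2 replicate 2 and 3707 bp in FS2-AEBP2.

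The peaks themselves were long. In AEBP2 replicate 1 the longest peak of the whole list lay in the HoxC cluster. It covered 52311 bp (chr15:102781626-102833936) with the start sites of Hoxc11, Hoxc10, Hoxc9, Hoxc8 and Hoxc6, and its score ranked 100 of 2877, with tied peaks given their best rank. In AEBP2 replicate 2 the peak over Hoxc12 to Hoxc6 measured 78285 bp (chr15:102760819-102839103), rank 2 by length and 143 of 6779 by score. FS2-AEBP2 had 2 long peaks, of 41064 bp over Hoxc11, Hoxc10 and Hoxc9 (chr15:102777361-102818424, rank 3 by length) and of 29637 bp over Hoxc8, Hoxc6 and Hoxc5 (chr15:102819024-102848660, rank 4). The score of the former ranked 9 of 2884. In all 3 AEBP2 lists Hoxc11, Hoxc10 and Hoxc9 shared 1 peak.

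H3K27me3 replicate 1 had 2 peaks over the cluster, of 91346 bp with the start sites of Hoxc13 to Hoxc8 and of 50462 bp with those of Hoxc6, Hoxc5 and Hoxc4. H3K27me3 replicate 2 had 1 peak of 136830 bp (chr15:102738091-102874920) that held all 9 start sites and was the longest of its list. The numbers of peaks in the cluster were 11 and 7 for AEBP2, 15 for FS2-AEBP2, and 2 and 1 for H3K27me3, so the lists with the fewest peaks, those of H3K27me3, had the widest coverage.

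Joining peaks over gaps of up to 5 kb gave the edges of the domain. In AEBP2 replicate 1 the run with the most start sites covered 85212 bp (chr15:102763443-102848654) and held 7 start sites, leaving out Hoxc13 and Hoxc4. In AEBP2 replicate 2 it was chr15:102740256-102866415 and in FS2-AEBP2 chr15:102740127-102870116, each with all 9. AEBP2 replicate 1 had a separate peak at the same outer edge (chr15:102740582-102741662), but its score stood above only 2.75% of that list. The H3K27me3 domain began farther out, at 102732807 in replicate 1 and 102735780 in replicate 2. On the Hoxc4 side it ended at 102874920 in replicate 2, and the peak of replicate 1 ended close by at 102875404, but further peaks behind it extended the joined run of replicate 1 to 102979865. That far edge depended on the gap allowed in both replicates, since a gap of up to 1 kb ended the run of replicate 1 at 102875404 and a gap of up to 10 kb extended that of replicate 2 to 102949175.

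Across the whole cluster, peaks covered 70.8% of the bases in AEBP2 replicate 1 and 88.6% in AEBP2 replicate 2, with a mean of 79.7% ± 12.6 (SD, n = 2). FS2-AEBP2 covered 83.8%, between the AEBP2 replicates. H3K27me3 covered 99.3% and 100%, with a mean of 99.7% ± 0.483 (SD, n = 2). Strong segments filled 37.8% and 59.1% of the cluster for AEBP2 (48.5% ± 15.1, SD, n = 2), 59.0% for FS2-AEBP2, and 89.4% and 95.8% for H3K27me3 (92.6% ± 4.51, SD, n = 2). Both H3K27me3 lists lay above all AEBP2 lists on either measure. The share of the peak bases that were in strong segments was also higher in the cluster than over the whole of each list, with 53.4% against 45.4% in AEBP2 replicate 1, 66.7% against 51.1% in AEBP2 replicate 2, 70.4% against 56.2% in FS2-AEBP2, 90.0% against 40.1% in H3K27me3 replicate 1 and 95.8% against 50.7% in H3K27me3 replicate 2. This was shared by HoxB and HoxD, where the values in the same order were 52.8%, 68.6%, 74.2%, 79.0% and 83.9%, and 59.3%, 62.6%, 69.8%, 76.6% and 90.1%. In HoxA the values were 39.7%, 55.2%, 78.2%, 58.0% and 74.5%. Only AEBP2 replicate 1 was below the value of its whole list there.

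Nearly all bases under AEBP2 were under H3K27me3 as well. Of the 81520 bp under peaks of both AEBP2 replicates, 99.0% were also under peaks of both H3K27me3 replicates, which in turn shared 70.2% of their bases with AEBP2. For strong segments the shares were 97.8% and 39.6%. Peaks of both H3K27me3 replicates covered 99.3% of the cluster and their strong segments 87.0%. A high first share therefore comes with the extent of H3K27me3. Between the AEBP2 replicates, 99.5% of the peak bases of replicate 1 were shared, which made 79.5% of those of replicate 2. FS2-AEBP2 shared 82.7% of its peak bases with AEBP2 replicate 1 and 95.8% with AEBP2 replicate 2.

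The longest strong segment of the cluster lay over the first Hoxc9 start site in each of the 3 AEBP2 lists. It measured 4735 bp in AEBP2 replicate 1 (chr15:102805226-102809960, rank 4 of 5820 segments of the list by length), 4610 bp in AEBP2 replicate 2 (chr15:102805245-102809854, rank 26 of 11198) and 5643 bp in FS2-AEBP2 (chr15:102805974-102811616, rank 6 of 7986). H3K27me3 had segments of 6686 bp and 14095 bp at the same place. The stretch in strong segments of all 5 lists there was 3881 bp long (chr15:102805974-102809854), with 896 bp before the Hoxc9 start site. It held the first exons of both Hoxc9 transcripts, with 126 bp of untranslated region, 2859 bp of intron and no coding sequence. In all, 36606 bp or 31.6% of the cluster lay in strong segments of all 5 lists, in 90 stretches, and 36942 bp in those of the 3 AEBP2 lists.

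The next longest stretches common to all 5 lists were of equal length and unlike sequence. A stretch of 1481 bp (chr15:102820946-102822426) lay over the Hoxc8 start site and had a GC content of 58.3% and 43.9 CpGs per kb. The other stretch of 1481 bp (chr15:102782968-102784448) ended 409 bp before the Hoxc11 start site, overlapped no annotated gene, and had a GC content of 44.8% and 8.1 CpGs per kb, with a ratio of observed to expected CpGs of 0.162. Its middle is the last of the sequences printed above, where a single CpG stands in 200 bases. It was singled out after its values were seen. Of the 21 common stretches of 500 bp or more, 3 had fewer than 10 CpGs per kb, and the range was 1.3 to 97.1 with a median of 32.2.

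CpG density was unevenly divided in the AEBP2 lists. The cluster as a whole had 21.5 CpGs per kb. In AEBP2 replicate 1 strong segments had 34.3 and the rest of the peaks 16.7, and the bases without a peak had fewer still, with a GC content of 44.6% against 54.2% in the segments. In AEBP2 replicate 2 the CpGs per kb in segments, other peak bases and bases without a peak were 28.9, 11.8 and 7.59, and in FS2-AEBP2 25.7, 18.7 and 10.3. All 3 AEBP2 lists thus had the same order. H3K27me3 replicate 1 had 22.2, 15.4 and 11.4, and H3K27me3 replicate 2 had 21.5 and 20.9 with no base left without a peak. Over 115 windows of 1 kb, Spearman's rho between the number of CpGs and the share in strong segments was 0.542 and 0.535 in the AEBP2 replicates, 0.35 in FS2-AEBP2, and -0.0344 and -0.0484 in the H3K27me3 replicates. These windows share a library and neighbour each other, the H3K27me3 lists were nearly full, and rho is given as a description.

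**Figure D3:**
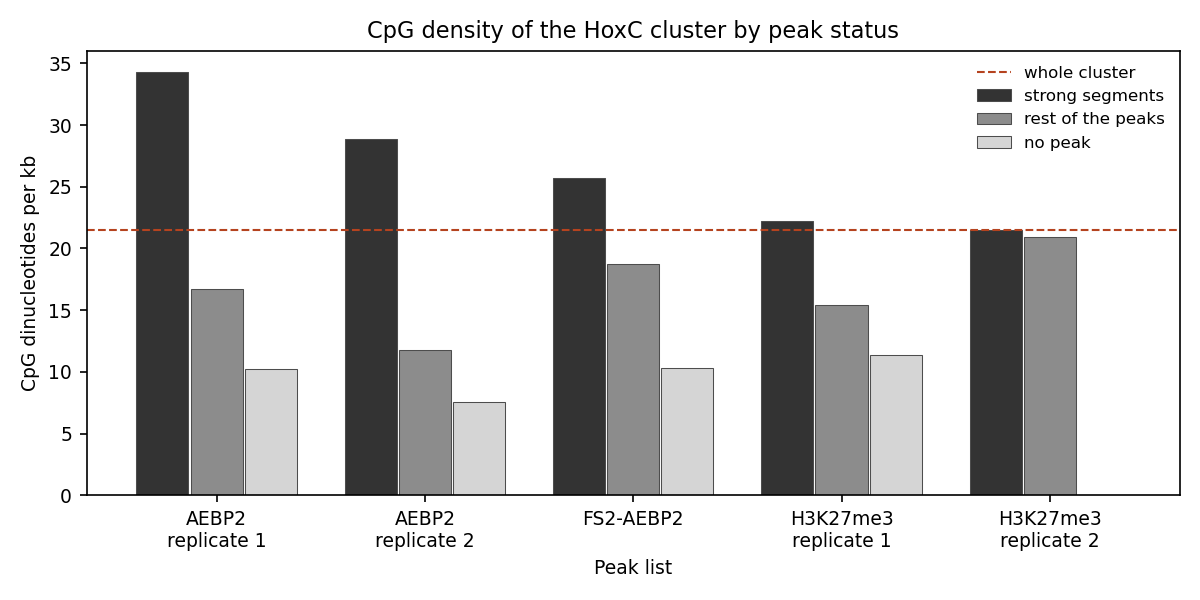
CpG dinucleotides per kb of the HoxC cluster in the strong segments, in the rest of the peaks and in the bases without a peak, for each list, with the value of the whole cluster as a dashed line at 21.5. The dark bars fall from 34.3 in AEBP2 replicate 1 to 21.5 in H3K27me3 replicate 2, which has no bar for bases without a peak.

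Regions that resemble CpG islands were set by joining 500 bp windows in which G and C made up 55% or more and the ratio of observed to expected CpGs reached 0.65. The HoxC cluster had 18 of them, and all 18 overlapped a peak in each of the 5 lists. Over the 20672 such regions of the genome this was true of 15.2% in AEBP2 replicate 1, 31.9% in AEBP2 replicate 2, 12.4% in FS2-AEBP2, 25.5% in H3K27me3 replicate 1 and 27.1% in H3K27me3 replicate 2. Peaks of H3K27me3 covered 99.3% and 100% of the HoxC cluster, so the full count in these 2 lists comes with their extent. In every list some of the regions shared a peak. The counts in the other Hox clusters were much the same. In HoxD all 19 regions had a peak in each list. In AEBP2 replicate 1, 24 of 26 regions of HoxA and 22 of 24 of HoxB had a peak, and in the other lists all did. The region at the Hoxc9 start site (chr15:102806141-102807040) was wholly in strong segments of all 5 lists. The region at the Hoxc13 start site (chr15:102751201-102752930), the densest with 74.6 CpGs per kb, was in strong segments for 66.0% and 71.9% in the AEBP2 replicates, 19.4% in FS2-AEBP2, and 66.6% and 67.3% in the H3K27me3 replicates. Of the 3 regions inside Hoxc4, the first (chr15:102857591-102858500) was in segments for 21.4%, 27.7% and 42.5% in the AEBP2 lists and for 81.3% and 86.5% in the H3K27me3 lists. The second (chr15:102864991-102865880) was in segments for 35.1%, 42.9% and 32.2% in the AEBP2 lists and for 78.4% and 100% in the H3K27me3 lists. The last (chr15:102866021-102866550) had 35.1%, 73.8% and 51.9% against 82.1% and 87.5%. In each of these 3 regions the AEBP2 values lay below the H3K27me3 values, but the lowest FS2-AEBP2 value of all 18 regions was that at Hoxc13.

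The non-coding genes of the cluster overlapped peaks of each list as well, though not always over their whole length. Hotair, listed as Gm16258 in the annotation, is a long RNA transcribed between Hoxc12 and Hoxc11. Its start site was under a peak in each list. Peaks covered 22.9% of its body in AEBP2 replicate 1, 58.3% in FS2-AEBP2 and 100% in the other lists. The body was in strong segments for none of its length in AEBP2 replicate 1, 34.7% in AEBP2 replicate 2 and 26.7% in FS2-AEBP2. In the H3K27me3 replicates this share was 91.3% and 100%. Mir196a-2 (chr15:102803772-102803881) encodes a microRNA known to target Hox transcripts and lies between Hoxc10 and Hoxc9. It was wholly in strong segments in 4 lists and for 85.5% in AEBP2 replicate 1. Mir615 (chr15:102845341-102845432) lies within Hoxc5 and was wholly in strong segments in 4 lists and for 56.5% in FS2-AEBP2. Their mature products, from RefSeq with the GRCm38.p6 build, are printed to identify them, with the seed (bases 2 to 8) in capitals, and they share no seed.
miR-196a-5p: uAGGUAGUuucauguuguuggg
miR-615-3p: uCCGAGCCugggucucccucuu

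The 3 nearest protein-coding genes on either side were looked at next. On the Hoxc13 side the nearest, Gm17649, is a short gene directly upstream of Hoxc13. Its promoter window overlapped the same peaks as that of Hoxc13 in all 5 lists. In AEBP2 replicate 1 and FS2-AEBP2 these peaks reached 32.4% and 45.2% of the window and left its start site and body uncovered. Calcoco1, Smug1 and Atp5g2 had no H3K27me3 peak at their promoters, and neither did Cbx5 or Hnrnpa1. Atp5g2, a subunit of the mitochondrial ATP synthase, had a peak of AEBP2 in both replicates, which filled 18.7% and 61.8% of its window, and none of FS2-AEBP2. Cbx5, the heterochromatin protein HP1 alpha, and Hnrnpa1, an RNA-binding protein, shared 1 peak of 1674 bp in AEBP2 replicate 2 alone. These peaks lay at chr15:102501242-102502667 for Atp5g2 in AEBP2 replicate 2 and at chr15:103069850-103071523 for Cbx5 and Hnrnpa1, well outside the cluster.

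Other genes of the Hox pathway were taken from lists set by their function. Of 9 cofactors that bind DNA together with Hox proteins, 3 and 4 promoters had a peak in the AEBP2 replicates, 3 in FS2-AEBP2 and 4 in each H3K27me3 replicate. Meis1, Meis2 and Pknox2 had peaks in all 5 lists. Of 15 regulators of Hox expression along the body axis, 8 and 11 had a peak in the AEBP2 replicates, 8 in FS2-AEBP2 and 12 in each H3K27me3 replicate. Cdx2, a homeodomain activator of posterior Hox genes, had its start site in a strong segment of all 5 lists, and the related Cdx1 had a peak in AEBP2 replicate 2 and both H3K27me3 replicates but not in AEBP2 replicate 1 or FS2-AEBP2. The list of 8 genes of the pluripotent state, which these cells express, includes Pou5f1. None of the 8 had a promoter peak in either AEBP2 replicate or in H3K27me3 replicate 2. Klf4, named after its values were seen, had 1 in FS2-AEBP2 and 1 in H3K27me3 replicate 1, over 16.4% and 16.6% of its window. Esrrb, likewise named afterwards, had no promoter peak in any list, but its body held peaks. They covered 1.41% and 1.43% of the body in the AEBP2 replicates and 0.984% in FS2-AEBP2. In the H3K27me3 replicates they covered 18.4% and 8.16%. The shares of the cofactors and regulators may be read against the percentages of all promoters given above. The regulators were not all separate, since Evx2 lay under the longest H3K27me3 peak over HoxD in each replicate (117362 bp and 71900 bp). Cyp26a1 and Cyp26c1 also shared 1 peak in each H3K27me3 replicate.

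Among the 30 other Hox genes, 28 and 30 promoters had a peak in the AEBP2 replicates, 29 in FS2-AEBP2 and 30 in each H3K27me3 replicate, so that a peak at the promoter did not set the HoxC genes apart. AEBP2 peaks covered 64.3% ± 9.27 of HoxA, 56.3% ± 10.1 of HoxB and 77.6% ± 11.5 of HoxD (SD, n = 2), against 79.7% ± 12.6 of HoxC. The difference between these means of HoxC and HoxD was smaller than the spread between replicates. Within a replicate HoxC was slightly above HoxD, with 70.8% against 69.5% and 88.6% against 85.8%. In strong segments the order differed, with 37.8% against 41.2% in AEBP2 replicate 1 and 59.1% against 53.7% in AEBP2 replicate 2. FS2-AEBP2 ordered the clusters in another way, with 93.7% of HoxA, 83.8% of HoxC, 75.1% of HoxD and 59.9% of HoxB. HoxB measured 173941 bp against 115741 bp for HoxC, so its percentages here and below refer to a longer span. It held the longest peak of the whole list in AEBP2 replicate 2 (87283 bp) and in FS2-AEBP2 (75653 bp). Strong segments of H3K27me3 filled 62.0% ± 15.8 of HoxA, 62.6% ± 0.407 of HoxB, 82.5% ± 8.39 of HoxD and 92.6% ± 4.51 of HoxC (SD, n = 2). HoxC was highest in each H3K27me3 replicate, with 89.4% and 95.8% against at most 76.6% and 88.4% in the others, while the means of HoxC and HoxD overlapped within their SDs. The clusters were not tested against each other.

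**Figure D4:**
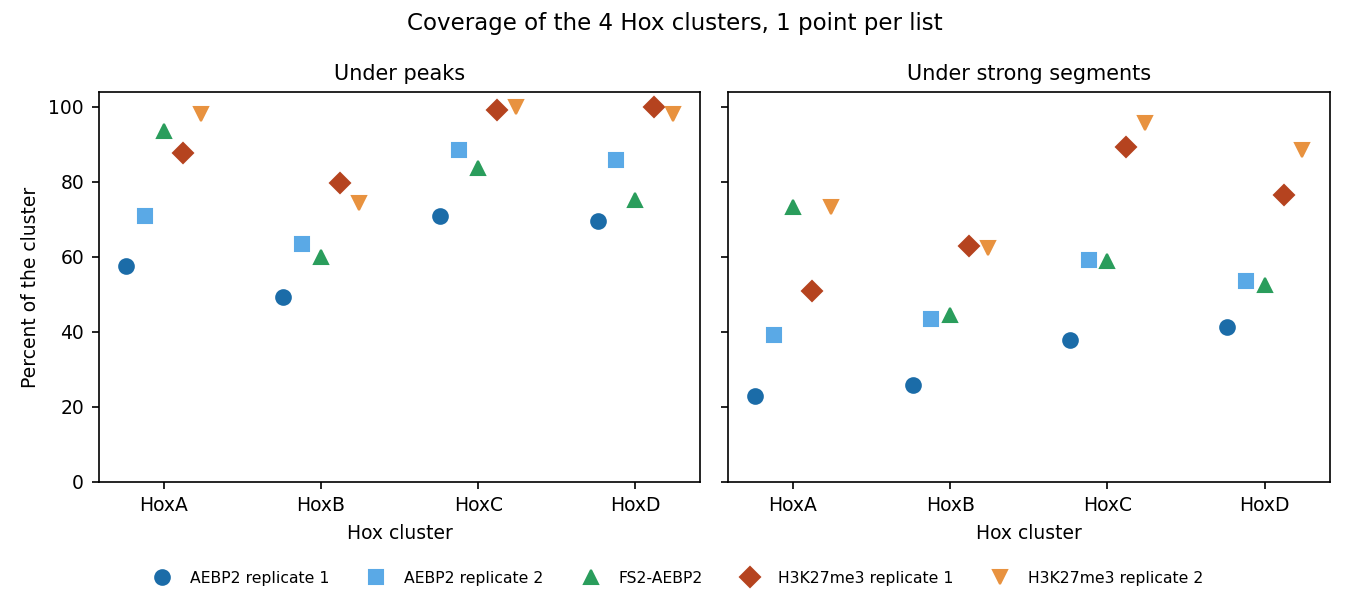
Percent of each Hox cluster under peaks (left) and under strong segments (right), with 1 point for each list. In the right panel the H3K27me3 points of HoxC, at 89.4 and 95.8%, lie above those of the other clusters in the same list, whereas the AEBP2 points of HoxC and HoxD lie close together.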

How the data were processed

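Peaks of AEBP2 (2 replicates), H3K27me3 (2 replicates) and FS2-AEBP2 (1 sample) in wild-type mESCs were analysed as deposited. The authors called peaks per sample, and the deposited rows hold the position, the score and the blocks of a peak. The submitters' processing notes name Bowtie, SAMtools, Picard and MACS2 2.0.10.2 and the mm9 build. Thresholds and control libraries are not given in the sources used here. Depth is unknown, and the number and length of called peaks may vary with it. Blocks of 1 bp, which mark the ends of a peak, were dropped. Peaks outside chromosomes 1 to 19, X and Y were left out (2 in AEBP2 replicate 1 and 13 in H3K27me3 replicate 2).

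Start sites were the 5′ ends of genes in GENCODE vM1, windows reached 1 kb to each side, and an overlap of 1 bp counted. The second record of Hoxa3 was left out of the counts of Hox genes. Rank is within a list. No test was made. A gene that the naming rule selects and 2 upstream sequences are not reported here. The interval steps were tested on simulated data. The genes named were all 9 members, the non-coding genes of the cluster, its 3 nearest protein-coding neighbours on either side, and the first members of each fixed list with and without AEBP2 in both replicates. The members and lists were chosen with earlier results of these data known. Alternatives were other windows, start sites, scores, gaps and island criteria, each replicate left out, and pairing by replicate number. 2 further alternatives on strong segments were chosen after seeing the data. Python 3.11.15 with numpy 2.4.6, pandas 2.3.3 and matplotlib 3.10.9 was used.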

Additional observations from a re-analysis of the deposited data

How the results depend on the processing

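Each of 93 values under an alternative was compared with its main value, and 68 of them moved by less than the replicate spread (for FS2-AEBP2, the binomial interval over base pairs) or, for counts, stayed within 1.5 times. The bases of 1 library are not independent, and the SD of 2 libraries can be wide. The count of 68 is therefore a description and not a measure of how robust the results are. Leaving out a replicate gave 70.8 to 88.6% of the cluster for AEBP2 and 99.3 to 100% for H3K27me3. With 2 replicates such a change is always smaller than their SD, so these values were bound to be among the 68. Counts of HoxC promoters with a peak stayed between 6 and 9 under all 5 alternatives. With peaks at or above the median score, FS2-AEBP2 covered 89.1% of the gene bodies on average and 82.3% of the cluster. With peaks within 1 kb joined, it covered 94.3% and 88.9%, and H3K27me3 replicate 1 covered 100% of both. Widening the cluster by 10 kb on either side gave 74.3% for FS2-AEBP2 and 98.0% and 98.3% for the H3K27me3 replicates. With peaks of either replicate, 100% of AEBP2 was under H3K27me3 and 89.0% of H3K27me3 under AEBP2.

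Pairing by replicate number (replicate block) gave 99.0% and 70.6% for replicate 1 and 100% and 88.6% for replicate 2. No result had a test, so no call could change with the block, and the samples share only a number. The length of the joined domain depended on the gap. Gaps of up to 1 kb gave 54716 bp in AEBP2 replicate 1, 89755 bp in AEBP2 replicate 2, 73793 bp in FS2-AEBP2 and 142598 bp in H3K27me3 replicate 1, and gaps of up to 10 kb gave 125839 bp in AEBP2 replicate 1 and 213396 bp, from 139141 bp, in H3K27me3 replicate 2. Looser island criteria (200 bp, 50% GC, ratio of 0.6) gave 57 regions, of which 52 had a peak in AEBP2 replicate 1, 54 in FS2-AEBP2 and 57 in the other lists. With start sites counted within 100 bp of a strong segment, FS2-AEBP2 rose from 4 to 7 genes, which by construction adds sites just outside a segment. Beyond what an alternative changes by construction, causes were not tested. The unknown depth limits all statements on gaps.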

Other observations

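Past the Hoxc4 end of the cluster, where the annotation has no gene, H3K27me3 formed 2 further domains with a peak in each AEBP2 list. The nearer had H3K27me3 peaks of 11980 bp in replicate 1 (chr15:102884805-102896784) and 16623 bp in replicate 2 (chr15:102886163-102902785). Inside it lay a peak in each AEBP2 list, of 2037 bp in AEBP2 replicate 1, 2200 bp in AEBP2 replicate 2 and 1712 bp in FS2-AEBP2. The farther had H3K27me3 peaks of 19676 bp in replicate 1 (chr15:102911846-102931521) and 9148 bp in replicate 2 (chr15:102912286-102921433), with AEBP2 peaks of 1408 bp, 1735 bp and 1920 bp in the same order of lists. The score of the farther peak stood above 91.4% of its list in AEBP2 replicate 2, 54.7% in AEBP2 replicate 1 and 36.2% in FS2-AEBP2. That of the nearer peak stood lower, above 57.7%, 7.47% and 26.7% in the same order. Strong segments made up 42.8%, 7.46% and 6.19% of the nearer peak. A place beyond these had H3K27me3 in both replicates (chr15:102932322-102935881 and chr15:102931720-102935292) with a peak of 590 bp in AEBP2 replicate 2 and of 130 bp in FS2-AEBP2, and none in AEBP2 replicate 1. The scores at this last place stood above 15.1% of the list in AEBP2 replicate 2 and 16.9% in FS2-AEBP2. All these places were noticed in the data and no test was made of them.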
